A study of Mus musculus with 2 samples.

Results

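The genes described here are 54 mouse genes whose products work in G2 and mitosis, the stretch of the cell cycle between the end of DNA replication and cell division, chosen by name from lists of cyclins, checkpoint, kinetochore and spindle genes. All 54 were found in the deposited tables, among the 23961 gene symbols used, with 1 row each, and all 54 reached 1 FPKM in a library or both, so no filter removed a member. The choice was by name and used no measured value, although earlier results of these data were known when it was made. The RNA came from haematopoietic stem cells, from which all lineages of the blood descend, taken by sorting from bone marrow of untreated C57BL/6 mice kept in a light and dark cycle. The 2 libraries are labelled Per2def (Per2-deficient) and Per2wt (wild type), with 1 library each. The Per2 protein represses transcription within the circadian clock. The labels name neither the Per2 allele, nor the age, sex, number or pooling of the animals, nor the time of day of collection. The question is how far the RNA of these genes differs between the libraries.

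In the library labelled Per2def, Per2 itself was listed at 6.16 FPKM, against 1.96 FPKM in the library labelled Per2wt. Its RNA level thus goes against the label of a deficient mouse. An allele that leaves RNA in place, exchanged labels and other differences between the samples, such as the unstated time of collection, cannot be told apart. Every direction below is therefore between libraries as labelled. FPKM are fragments per length of transcript and per total of mapped fragments, so levels of different genes can be compared per length. Differences are log2(FPKM + 1) in the library labelled Per2def minus the same in the library labelled Per2wt, on which changes of low genes look smaller than they are. Since each genotype has a single library, no replicate, test or p-value can be given, and the files give no read totals, so the depth behind a value is unknown. Among 3232 genes under 0.5 FPKM in both libraries the most common ratio of their values was 0.804, which a library labelled Per2def 1.24 times as deep as the other would give.

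Entry into mitosis is driven by the kinase Cdk1 bound to cyclins A and B, which Cdc25 phosphatases switch on. The duplicated chromosomes are then gripped at kinetochores by a spindle built with kinesin motors, the spindle checkpoint holds the cell until every chromosome is attached, and the anaphase-promoting complex then marks securin and the cyclins for destruction. Most adult stem cells of the blood rest outside the cycle, and RNA of many of these genes comes chiefly from the cells that are dividing. In bulk samples, fewer dividing cells and less RNA per dividing cell cannot be told apart. Many of these genes share short promoter elements. The cell cycle genes homology region (CHR) is bound by the MuvB complex, and CCAAT boxes are bound by the factor NF-Y, both known from work on human and mouse cells.

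The promoters of 8 members are shown because they are the genes past 1.2-fold on the log2(FPKM + 1) scale (Kif22, Cdc25b, Bub1 and Kif11), cyclin genes (Ccnb1, Ccnb2 and Ccnf) and, at 5 FPKM or more, the member with the widest difference in the other direction (Plk4). Cdc25b, Bub1 and Kif11 were added after their values had been seen. The cyclin gene Ccna2 is not shown because no promoter window was held for it. Each runs from 150 bases before the RefSeq start to 30 bases after it (GRCm38.p6), 5′ to 3′ on the strand of the gene, and capitals mark the CHR letters searched (TTTGAA or TTCGAA) and CCAAT, each on either strand.
Kif22 (chr7:127042391-127042570, minus strand): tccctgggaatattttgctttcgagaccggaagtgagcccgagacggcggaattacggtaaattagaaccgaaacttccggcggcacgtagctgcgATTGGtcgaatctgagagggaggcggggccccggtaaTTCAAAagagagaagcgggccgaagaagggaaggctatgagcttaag
Cdc25b (chr2:131186798-131186977, plus strand): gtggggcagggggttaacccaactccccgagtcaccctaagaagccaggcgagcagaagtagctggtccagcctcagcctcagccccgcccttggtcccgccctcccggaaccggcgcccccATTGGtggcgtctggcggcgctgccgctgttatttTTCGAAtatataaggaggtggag
Bub1 (chr2:127831830-127832009, minus strand): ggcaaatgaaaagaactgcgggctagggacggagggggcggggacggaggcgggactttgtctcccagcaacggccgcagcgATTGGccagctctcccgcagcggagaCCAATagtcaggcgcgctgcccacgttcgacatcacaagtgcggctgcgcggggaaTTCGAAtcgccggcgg
Kif11 (chr19:37376232-37376411, plus strand): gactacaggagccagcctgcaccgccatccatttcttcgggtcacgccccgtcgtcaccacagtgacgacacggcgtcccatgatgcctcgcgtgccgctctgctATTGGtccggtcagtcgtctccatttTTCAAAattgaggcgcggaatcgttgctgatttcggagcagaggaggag
Ccnb1 (chr13:100786457-100786636, minus strand): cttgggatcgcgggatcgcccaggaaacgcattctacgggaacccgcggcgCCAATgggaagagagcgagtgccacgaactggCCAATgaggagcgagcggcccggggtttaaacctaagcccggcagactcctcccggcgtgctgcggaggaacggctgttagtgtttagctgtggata
Ccnb2 (chr9:70421525-70421704, minus strand): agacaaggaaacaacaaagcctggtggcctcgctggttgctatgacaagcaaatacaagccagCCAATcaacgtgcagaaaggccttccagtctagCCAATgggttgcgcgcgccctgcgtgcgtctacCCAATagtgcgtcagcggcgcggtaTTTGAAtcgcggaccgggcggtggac
Ccnf (chr17:24251380-24251559, minus strand): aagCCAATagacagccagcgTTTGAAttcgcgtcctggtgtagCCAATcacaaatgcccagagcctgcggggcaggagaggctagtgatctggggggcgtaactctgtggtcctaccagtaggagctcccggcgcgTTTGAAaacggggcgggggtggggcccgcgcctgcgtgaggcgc
Plk4 (chr3:40799801-40799980, plus strand): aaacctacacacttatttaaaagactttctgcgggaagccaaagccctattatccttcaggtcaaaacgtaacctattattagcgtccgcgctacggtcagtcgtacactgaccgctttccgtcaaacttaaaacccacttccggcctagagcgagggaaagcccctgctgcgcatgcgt

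The G2 and mitosis genes were close to alike in the libraries, with a small lean to lower values in the library labelled Per2def. Of 54 members 38 were lower there and 16 higher, where 38% of the 11121 genes that reached 1 FPKM in a library were lower. The median difference of the members was −0.07, against 0.05 over all those genes, and 42 of the 54 lay below that median of all genes. Relative to that median, below which 50% of all genes lie, the 4 members between it and 0 (Ccnf, Mad2l1, Cenpe and Kif4) count as lower too. Their summed level was 680 FPKM in the library labelled Per2def and 710 FPKM in the library labelled Per2wt, a ratio of 0.957.

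The differences of single members were narrow. They ran from −0.33 for Cdc25b to 0.20 for Ttk, and none reached 2-fold in either direction. Of all genes 0.998% were at least 2-fold lower and 1.25% at least 2-fold higher. Without small and predicted RNAs these shares were 0.159% and 0.258%, so the absence of members past 2-fold lies near the background. On the log2(FPKM + 1) scale 4 members were at least 1.2-fold lower (Cdc25b, Bub1, Kif22 and Kif11), 7.41% of the members, where 6.45% of all genes passed that threshold, so this count lies near the background. Kif11, at −0.264, lies just past the threshold of 0.263 on the log2 scale, and Bub1b, at −0.249, just short of it, although its plain FPKM ratio of 0.83 is also past 1.2-fold. No member was at least 1.2-fold higher, where 12.2% of all genes were. At 1.1-fold, 16 members were lower, where 15.1% of all genes were, and 6 were higher, where 30% of all genes were. The lean was of similar size at low and high levels. Leaving out small and predicted RNAs, members with a mean of 1 to 5 FPKM had a median difference of −0.07 (15 genes), those at 5 to 20 FPKM of −0.07 (31 genes) and those at 20 to 100 FPKM of −0.06 (8 genes), against medians of 0.06, 0.05 and 0.03 over all genes of those levels. The middle 90% of all genes at 5 to 20 FPKM ran from −0.25 to 0.32. Across the 3 levels 50 members lay inside such a range and 4 outside, the same 4 that passed 1.2-fold, all below it.

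**Figure D1:**
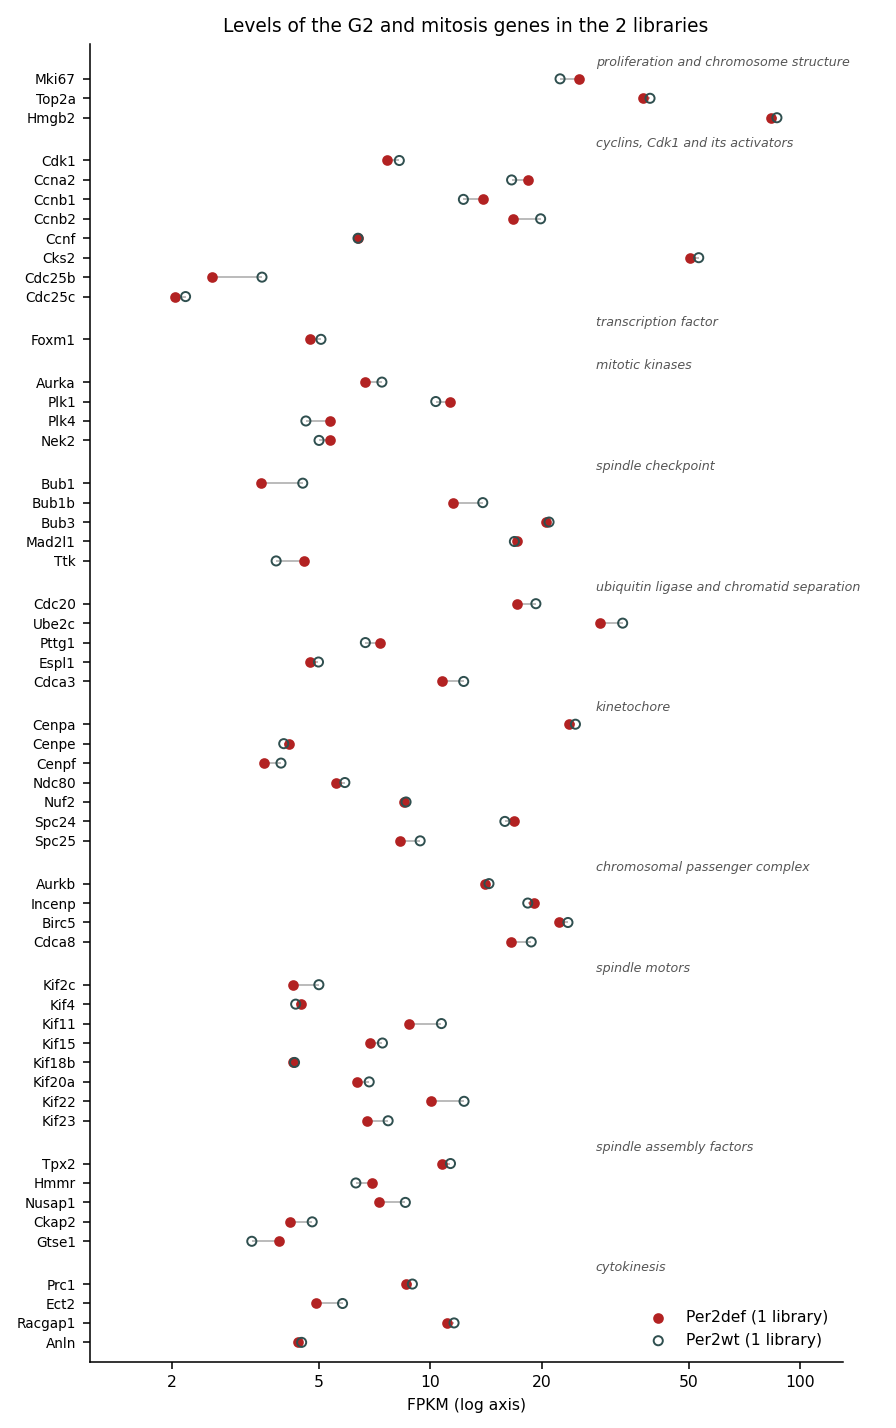
Level of each of the 54 genes in FPKM on a log axis, grouped by role, with the library labelled Per2def as filled circles and the library labelled Per2wt as open circles, 1 library each. Hmgb2 is the highest gene in both libraries and Cdc25c the lowest, and the circles of most genes lie close together.

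Levels spanned a wide range, and their order was nearly shared. In the library labelled Per2def the members ran from 2.04 to 83.1 FPKM with a median of 7.97, and in the library labelled Per2wt from 2.18 to 86.4 FPKM with a median of 8.58. Hmgb2, a DNA-bending chromatin protein gene, was the highest, at 83.1 FPKM in the library labelled Per2def and 86.4 FPKM in the library labelled Per2wt. Cks2, which encodes a small subunit bound to Cdk1, came next, at 50.4 FPKM in the library labelled Per2def and 53.1 FPKM in the library labelled Per2wt. Top2a, the topoisomerase that untangles sister chromatids, came after it, at 37.7 FPKM in the library labelled Per2def and 39.2 FPKM in the library labelled Per2wt. These 3 genes and Ube2c held ranks 1 to 4 in both libraries. Mki67, whose product coats mitotic chromosomes and is the usual marker of dividing cells, went the other way from the majority, at 25.2 FPKM in the library labelled Per2def and 22.4 FPKM in the library labelled Per2wt (0.16).

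Cyclin genes parted from each other. Cyclin B1 (Ccnb1), the main partner of Cdk1 at mitotic entry, was at 13.9 FPKM in the library labelled Per2def and 12.3 FPKM in the library labelled Per2wt (0.16). Its close relative Ccnb2 was at 16.8 FPKM in the library labelled Per2def and 19.9 FPKM in the library labelled Per2wt (−0.23). The ratio of Ccnb1 to Ccnb2 was thus 0.828 in the library labelled Per2def and 0.619 in the library labelled Per2wt. Cyclin A2 (Ccna2), which acts from S phase into G2, was higher, at 18.4 FPKM in the library labelled Per2def and 16.6 FPKM in the library labelled Per2wt (0.14). Its exons overlap those of Exosc9 on the other strand by 510 bases, and the strand setting of the counting is not given, so its reads may include some of that gene. Ccnf, an F-box protein gene that directs protein destruction and does not activate a kinase, was level, at 6.39 FPKM in the library labelled Per2def and 6.38 FPKM in the library labelled Per2wt.

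Cdk1, its subunit gene Cks2 (−0.08) and the phosphatase genes Cdc25b and Cdc25c were lower in the library labelled Per2def, unlike Ccnb1 and Ccna2. Cdk1 was at 7.66 FPKM there and 8.25 FPKM in the library labelled Per2wt (−0.10). Cdc25b, the phosphatase gene that starts Cdk1 activation in G2, had the widest difference of all members (chromosome 2, 131186949 to 131198497, plus strand, GRCm38), at 2.57 FPKM in the library labelled Per2def and 3.51 FPKM in the library labelled Per2wt (−0.33), a ratio of 0.734. It is among the lowest members, where counting error weighs most, and shares 92 exon bases with Spef1 on the other strand, a gene at 0.63 FPKM in the library labelled Per2def and 0.571 FPKM in the library labelled Per2wt. Its relative Cdc25c was at 2.04 FPKM in the library labelled Per2def and 2.18 FPKM in the library labelled Per2wt (−0.07). Foxm1, the transcription factor that switches on many members of the set, differed little, at 4.73 FPKM in the library labelled Per2def and 5.06 FPKM in the library labelled Per2wt (−0.08).

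Among the centrosome and spindle pole kinase genes Plk4, Plk1, Nek2 and Aurka, 3 of 4 were higher in the library labelled Per2def. Over all genes 62% were higher, so this count lies near the background. Kinase genes described with other roles also went both ways, with Ttk higher (0.20), Cdk1 (−0.10) and Bub1 (−0.30) lower and Aurkb near level (−0.03). Plk4, the kinase gene of centriole duplication, was at 5.36 FPKM in the library labelled Per2def and 4.61 FPKM in the library labelled Per2wt (0.18). Plk1, which acts at centrosomes, kinetochores and the midzone, was at 11.3 FPKM in the library labelled Per2def and 10.3 FPKM in the library labelled Per2wt (0.12), and Nek2, a kinase gene of centrosome separation, differed by 0.08. Aurka, the spindle pole kinase, was the exception, at 6.67 FPKM in the library labelled Per2def and 7.40 FPKM in the library labelled Per2wt (−0.13). Tpx2, whose product activates the Aurka kinase, was lower too, at 10.8 FPKM in the library labelled Per2def and 11.3 FPKM in the library labelled Per2wt (−0.07).

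Spindle checkpoint genes held both the second lowest and the highest difference of the set. Bub1, the checkpoint kinase gene (chromosome 2, 127801122 to 127831865, minus strand), was at 3.48 FPKM in the library labelled Per2def and 4.52 FPKM in the library labelled Per2wt (−0.30), a ratio of 0.769. Bub1b, which encodes the related inhibitor of the anaphase-promoting complex BubR1, was lower as well, at 11.5 FPKM in the library labelled Per2def and 13.9 FPKM in the library labelled Per2wt (−0.25). Ttk, the kinase gene at the head of the checkpoint, had the highest difference, at 4.55 FPKM in the library labelled Per2def and 3.83 FPKM in the library labelled Per2wt (0.20). The remaining checkpoint components were level, with Bub3 at −0.02 and Mad2l1, the gene of the inhibitor Mad2, at 0.02.

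Genes of protein destruction and chromatid separation were lower in 4 of 5 cases, with a median of −0.16. Of all genes 38% were lower, and of the members 70.4%, so this count lies near the share of the set. Ube2c, the ubiquitin-conjugating enzyme of the anaphase-promoting complex, was at 28.7 FPKM in the library labelled Per2def and 33.1 FPKM in the library labelled Per2wt (−0.20). Cdc20, the activator that brings substrates to that complex, was at 17.1 FPKM in the library labelled Per2def and 19.3 FPKM in the library labelled Per2wt (−0.16). Cdca3, known from frog egg extracts as a trigger of mitotic entry, was at 10.8 FPKM in the library labelled Per2def and 12.3 FPKM in the library labelled Per2wt (−0.18). Separase and its inhibitor went opposite ways, with the separase gene Espl1 at −0.07 and the securin gene Pttg1 at 0.12 (7.33 FPKM in the library labelled Per2def and 6.68 FPKM in the library labelled Per2wt).

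Kinetochore genes were lower in 5 of 7 cases, by small amounts (median −0.05). Lower genes made up 38% of all genes and 70.4% of the members, so this count lies near the share of the set. The Ndc80 complex, the rod that binds microtubules, has its 4 genes in the set, and these did not move together. Spc25 was at 8.28 FPKM in the library labelled Per2def and 9.39 FPKM in the library labelled Per2wt (−0.16), whereas its binding partner Spc24 was at 16.8 FPKM in the library labelled Per2def and 15.9 FPKM in the library labelled Per2wt (0.08). The ratio of Spc24 to Spc25 was 2.03 in the library labelled Per2def and 1.69 in the library labelled Per2wt. Ndc80 (−0.07) and Nuf2 (−0.02) differed little. The centromeric histone variant gene Cenpa, the highest of the group, was at 23.7 FPKM in the library labelled Per2def and 24.7 FPKM in the library labelled Per2wt (−0.05). Cenpf, a large kinetochore and nuclear matrix protein gene, differed by −0.12, and Cenpe, a kinetochore motor gene, by 0.04.

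In the chromosomal passenger complex, which corrects faulty attachments, 3 of 4 genes were lower in the library labelled Per2def. That share was 38% over all genes and 70.4% over the members, so this count lies near that of the set. Cdca8, the borealin gene, was at 16.5 FPKM in the library labelled Per2def and 18.7 FPKM in the library labelled Per2wt (−0.17). The survivin gene Birc5 differed by −0.08, the kinase gene Aurkb by −0.03 and the scaffold gene Incenp by 0.06, so this complex too held members on both sides of 0.

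Spindle motor genes had the most uniform lean among the roles with at least 5 members. Of 8 kinesin genes 7 were lower in the library labelled Per2def, against 38% of all genes and 70.4% of the members. The median of the kinesin genes was −0.13. Their summed level was 51.8 FPKM in the library labelled Per2def and 58.6 FPKM in the library labelled Per2wt. Kif22, a motor that pushes chromosome arms away from the poles (chromosome 7, 127027729 to 127042471, minus strand), was at 10.05 FPKM in the library labelled Per2def and 12.3 FPKM in the library labelled Per2wt (−0.27). Kif11, which slides the poles apart (chromosome 19, 37376403 to 37421859, plus strand), was at 8.76 FPKM in the library labelled Per2def and 10.7 FPKM in the library labelled Per2wt (−0.26). The motor that can stand in for it, Kif15, was lower by less, at 6.86 FPKM in the library labelled Per2def and 7.42 FPKM in the library labelled Per2wt (−0.10). Kif2c, which takes microtubules apart at centromeres, was at 4.26 FPKM in the library labelled Per2def and 5.00 FPKM in the library labelled Per2wt (−0.19). Kif23 (−0.16) and Kif20a (−0.09), motors of the central spindle, were lower as well. Kif18b, which shortens astral microtubules, was level (−0.01), and the chromosome arm motor gene Kif4 was the exception, at 4.47 FPKM in the library labelled Per2def and 4.33 FPKM in the library labelled Per2wt (0.04), although it too is lower relative to the median of all genes. The exons of Kif20a overlap Cdc23 by 1271 bases on the other strand and those of Kif4 overlap Pdzd11 by 832 bases, so both values may include reads of those genes. In all, 13 members share exon bases with a gene on the other strand, and the same holds for Cdc25c, Plk1, Nek2, Cdc20, Ube2c, Cdca8, Kif22, Nusap1 and Prc1. Of these, Prc1 shares 911 bases with Rccd1, Cdc25c 623 with Gm3550 and Ube2c 592 with Tnnc2. Another 3 members overlap a gene on the same strand, which strand marks cannot separate. Top2a shares 122 bases with Gm23451 and Foxm1 144 with Tex52. Ccnf shares 8 bases with Mir5134, listed at 132 FPKM in the library labelled Per2def and 0 in the library labelled Per2wt.

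Spindle assembly factors split, with Nusap1 (−0.21), Ckap2 (−0.16) and Tpx2 lower and Gtse1 (0.19) and Hmmr (0.12) higher. Nusap1, a microtubule bundler, was at 7.25 FPKM in the library labelled Per2def and 8.56 FPKM in the library labelled Per2wt. Gtse1, a microtubule regulator that also restrains p53, was at 3.90 FPKM in the library labelled Per2def and 3.29 FPKM in the library labelled Per2wt. All 4 cytokinesis genes were lower, against 38% of all genes and 70.4% of the members, chiefly by small amounts. Ect2, which activates RhoA at the division plane, was at 4.92 FPKM in the library labelled Per2def and 5.79 FPKM in the library labelled Per2wt (−0.20). Its partner Racgap1 (−0.05), the midzone bundler Prc1 (−0.05) and the scaffold gene Anln (−0.03) differed little.

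**Figure D2:**
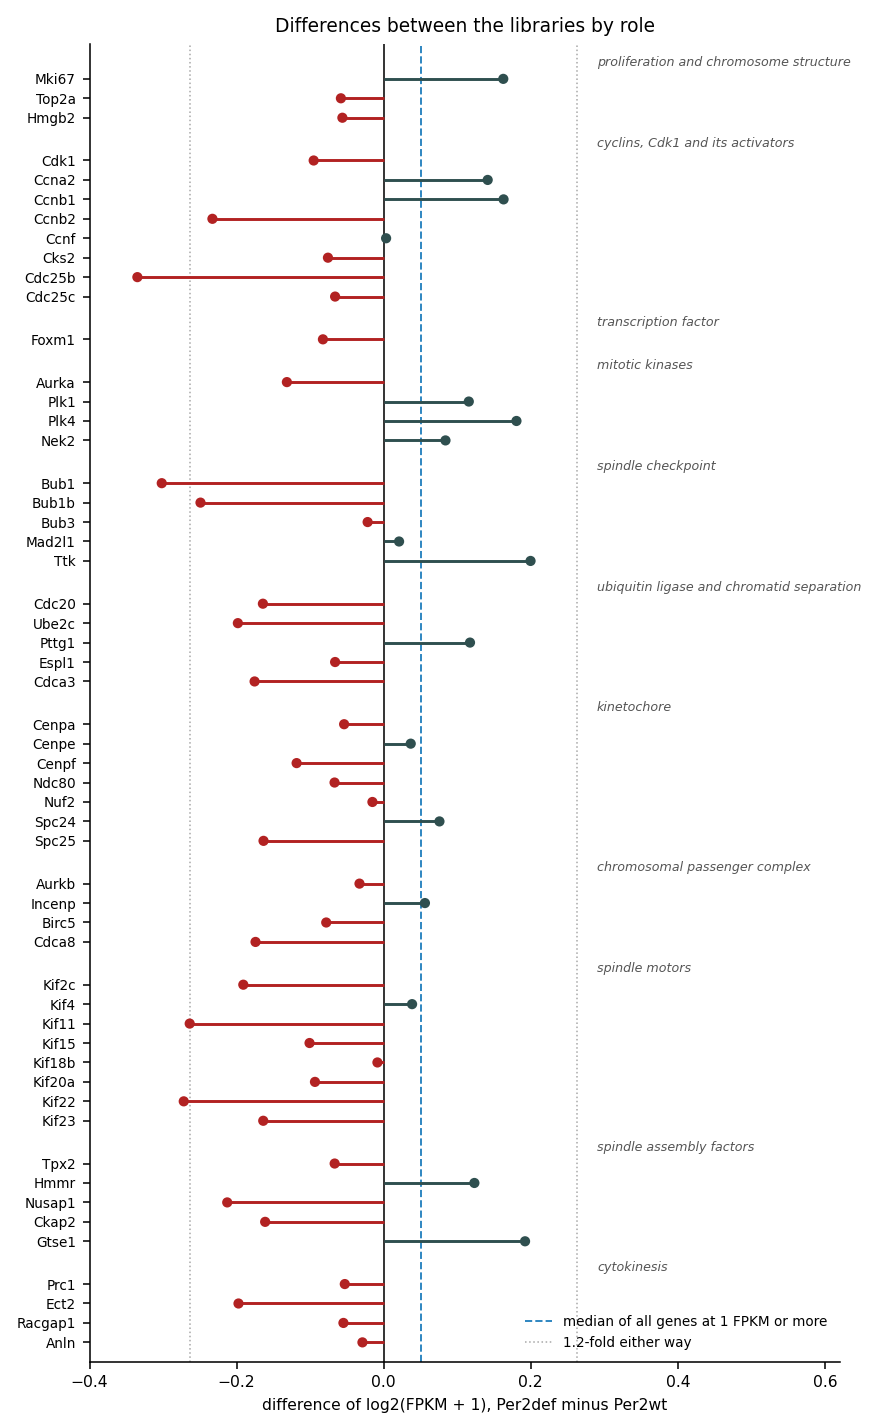
Difference of each gene on the log2(FPKM + 1) scale, Per2def minus Per2wt as labelled, grouped by role, in red where lower and in slate where higher in the library labelled Per2def. The dashed line is the median of all genes at 1 FPKM or more (0.05) and the dotted lines are 1.2-fold, which 4 genes pass on the lower side and none on the higher side.

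CHR letters were common in the promoters of the set. The RefSeq table held 50 promoter windows for 46 of the 54 members, each from 250 bases before to 50 bases after a start. Of these 50 windows 38 (76%) held the CHR letters, against 19.2% of all 32851 windows of that length. CCAAT was in 80% of the windows of the members and 37.4% of all windows, and at least 2 copies were in 56% against 11.7%. Both elements together were in 68% against 7.52%. A match is a description of letters and not of a bound site. Only TTTGAA and TTCGAA were searched, so a gene without these letters is not shown to lack the element.

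Differences were also set beside the letters each promoter held, with splits drawn after the values were known, untested and given as a description. Of 35 genes with the letters 29 were lower in the library labelled Per2def (median −0.10, range −0.33 to 0.20), and of 11 genes without them 4 were (median 0.04, range −0.21 to 0.19). For CCAAT, 26 of 36 genes with it were lower (median −0.07) and 7 of 10 without it (median −0.05), and for at least 2 copies 18 of 26 with them were lower and 15 of 20 without. Most members hold the CHR letters, so the 4 genes past 1.2-fold on the log2(FPKM + 1) scale, picked by their differences, having them too adds little. Of the 6 genes with the CHR letters that were higher, Ttk has the highest difference of the whole set (0.20), and the others are Mki67 (0.16), Hmmr (0.12), Plk1 (0.12), Kif4 (0.04) and Ccnf. Among the 4 lower genes without them, Nusap1 was at −0.21, and Birc5, Cks2 and Nuf2 lay nearer to 0. In the stretches shown, the CHR letters lay 17 bases before the start in Kif22 and 19 bases in Kif11, each with a CCAAT box further upstream. The full window of Kif22 held 2 matches of each element. Ccnb2 and Ccnb1 fall on either side of the split by the CHR letters searched. The window of Ccnb2 held 2 matches of the CHR letters, 1 of them TTTGAA beginning at base 5 after the start, and 3 CCAAT boxes before the start. That of Ccnb1 held 2 CCAAT boxes and none of the CHR letters searched. Plk4 had neither. Among 8162 measured genes outside the set with a promoter window the CHR shares were close, with 36.9% lower of the 1298 genes with CHR letters and 37.8% lower of the 6864 without. In the wider mitotic lists described next, 20 of 44 genes with the letters and 26 of 49 without were lower.

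**Figure D3:**
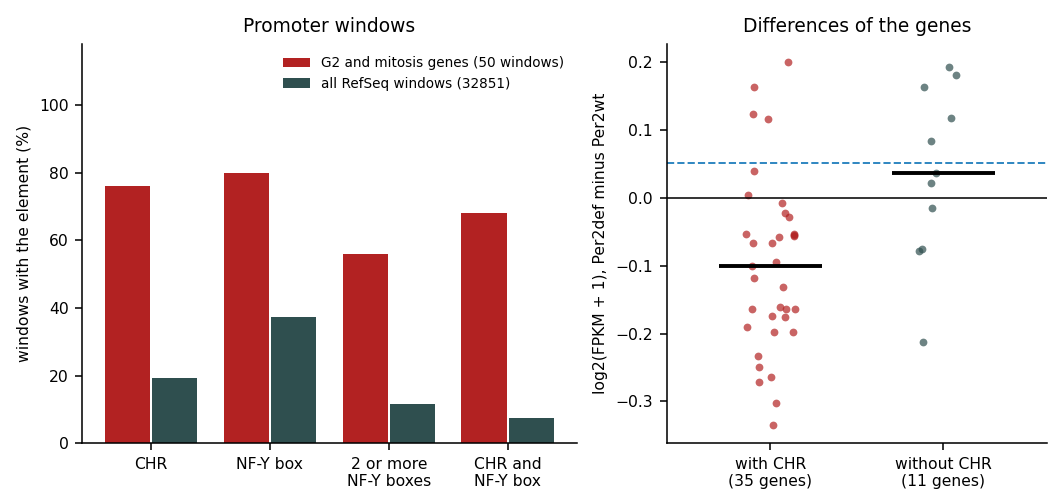
Left, percentage of promoter windows that hold CHR letters, a CCAAT box (marked NF-Y box, after the factor that binds it), at least 2 such boxes, or both elements, in the 50 windows of the G2 and mitosis genes (red) and all 32851 RefSeq windows (slate). Right, difference on the log2(FPKM + 1) scale of the genes with (35) and without (11) the CHR letters, with black bars at the medians of −0.10 and 0.04 and a dashed line at the median of all genes.

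Other genes of the mitotic pathway, taken from lists chosen by function, had medians nearer to 0 or above it. Among 28 other late cell cycle genes 17 were lower in the library labelled Per2def (median −0.03), against 38% of all genes. At 1.2-fold, 4 (14.3%) were lower and none higher, against 6.45% and 12.2% of all genes. The mean of this list, −0.06, was like that of the members (−0.06). Fam64a, a gene of the metaphase to anaphase transition, had the widest difference of its list, at 4.03 FPKM in the library labelled Per2def and 6.31 FPKM in the library labelled Per2wt (−0.54). Of 16 subunits and regulators of the anaphase-promoting complex 9 were lower (median −0.03), with Anapc15 at −0.27, Ube2s at −0.18 and Cdc27 at 0.22. The 11 genes of mitotic entry control had a median of −0.01, with the phosphatase gene Cdc25a (0.23) and the Cdk1-inhibiting kinase gene Pkmyt1 (0.21) higher and Ensa at −0.12. Of 31 other kinetochore and centromere genes 16 were lower and 15 higher (median −0.004). Pmf1, a kinetochore gene of the Mis12 complex, was at 30.7 FPKM in the library labelled Per2def and 23.1 FPKM in the library labelled Per2wt (0.40), while Cenpt was at −0.29 and Cenpq at 0.28.

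Chromosome structure, regulator and S phase lists had medians above that of all genes. Of 16 condensin and cohesin genes 13 had the higher value in the library labelled Per2def (median 0.08), where 62% of all genes were, and 5 (31.2%) were at least 1.2-fold higher, where 12.2% of all genes were, among them the condensin genes Ncapg2 (0.33), Smc2 (0.33) and Ncapd3 (0.31). Smc2 was at 13.3 FPKM in the library labelled Per2def and 10.4 FPKM in the library labelled Per2wt. Of 16 genes of the MuvB complex, E2F factors and pocket proteins 13 were higher (median 0.16), with 2 (12.5%) at least 1.2-fold higher, near the share of all genes. Mybl2, the activating partner of MuvB, was at 9.36 FPKM in the library labelled Per2def and 7.16 FPKM in the library labelled Per2wt (0.34), and E2f4 (0.22) and the pocket protein gene Rbl2 (0.20) were higher too. In the list of 32 G1/S and S phase genes 7 were lower and 25 higher (median 0.11), 4 of them (12.5%) at least 1.2-fold, with Gins1 at 0.46, Cdt1 at 0.32 and Dtl at 0.27, so the medians of this list and of the G2 and mitosis genes lay on opposite sides of the median of all genes. Relative to that median, lower genes numbered 20 of 28 among the other late cell cycle genes, 12 of 16 in the anaphase-promoting complex list, 9 of 11 in mitotic entry control, 16 of 31 among other kinetochore genes, 6 of 16 in condensin and cohesin, 3 of 16 in the MuvB list and 8 of 32 in the G1/S and S phase list.

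**Figure D4:**
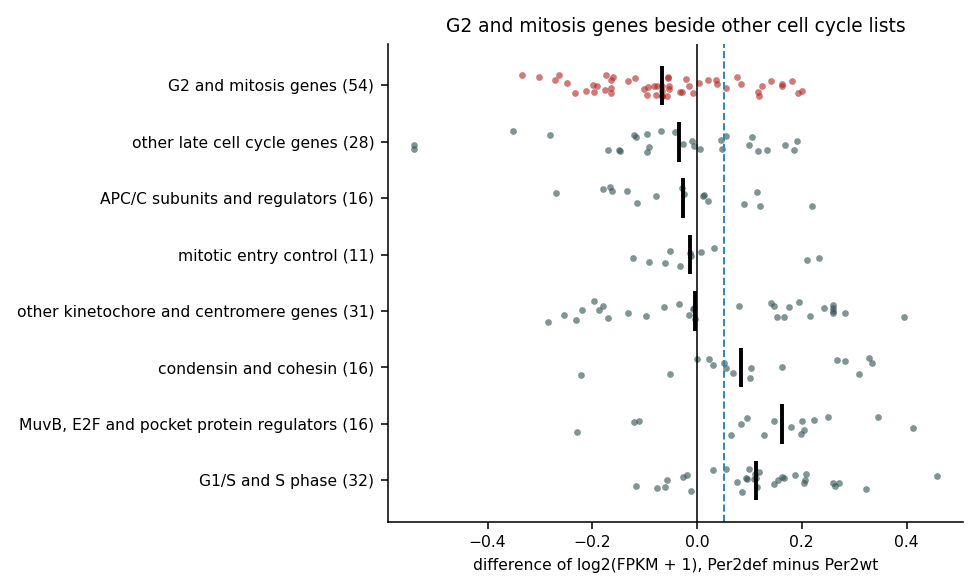
Difference of every gene of 8 cell cycle lists on the log2(FPKM + 1) scale, Per2def minus Per2wt as labelled, with the number of genes in brackets and a black bar at each median. The G2 and mitosis genes have a median of −0.07, the G1/S and S phase genes 0.11, and the dashed line marks the median of all genes at 0.05.

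Markers of several blood cell types differed between the libraries by more than the G2 and mitosis genes, whose median was −0.07. Median differences of the genes at 1 FPKM or more were 1.23 for neutrophil markers, 0.63 for mast cell and basophil markers, 0.42 for T cell markers, 0.31 for erythroid markers, 0.14 for monocyte markers, −0.12 for megakaryocyte markers and −0.02 for both stem cell and multipotent progenitor markers. The medians near 0 hold genes far to either side, with examples chosen after their values were seen. In the stem cell list these include Thy1 (0.72), Hlf (−0.34), Tek (−0.30) and Gata2 (−0.27). In the progenitor list they include Cd48 (0.47) and Mpo (0.34) on the higher side and Cd27 (−0.26) and Spi1 (−0.24) on the lower side. The marker counts that follow stand beside shares over all genes at 1 FPKM or more. Of those genes, 62% were higher in the library labelled Per2def, 38% lower and 12.2% at least 1.2-fold higher. Of 12 neutrophil markers 11 were at 1 FPKM or more, and all 11 were higher in the library labelled Per2def. The neutrophil list summed to 839 FPKM there, against 387 FPKM in the library labelled Per2wt. Erythroid markers were higher in 8 of 11 cases, with sums of 731 FPKM in the library labelled Per2def and 657 FPKM in the library labelled Per2wt, and Hba-a1, Hbb-b1 and Alas2 lower. Monocyte markers were higher in 5 of 6 cases (85.0 FPKM in the library labelled Per2def and 68.7 FPKM in the library labelled Per2wt), and multipotent progenitor markers in 3 of 6 (392 FPKM in the library labelled Per2def and 362 FPKM in the library labelled Per2wt). Of 15 stem cell markers 12 were measured and 7 of them lower, with sums of 136 FPKM in the library labelled Per2def and 143 FPKM in the library labelled Per2wt. Slamf1, Fgd5 and Hoxb5, defining genes of stem cells, were under 1 FPKM in both libraries, and the labels give no sort markers, so the share of stem cells is unknown. Of 8 megakaryocyte markers 7 were measured, 4 of them lower (36.8 FPKM in the library labelled Per2def and 39.4 FPKM in the library labelled Per2wt). Of T cell markers 5 of 8 reached 1 FPKM, of mast cell and basophil markers 2 of 5 and of B cell markers 1 of 7. The 5 and the 2 all had their higher value in the library labelled Per2def, 4 of the 5 and both of the 2 by at least 1.2-fold, and the B cell marker lower, with list sums of 21.3, 9.20 and 6.55 FPKM in the library labelled Per2def and of 15.8, 5.82 and 6.94 FPKM in the library labelled Per2wt. Pax5 was listed at 0 in the library labelled Per2def, and Ms4a1 and Fcer1a in the library labelled Per2wt. The part of these markers in the differences of the G2 and mitosis genes was not tested.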

How the data were processed

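Libraries were strand-marked and made from poly(A) RNA of sorted bone marrow stem cells, per the labels' protocols. The deposited values are FPKM per gene symbol, per the file headers. The submitters' processing notes name Cufflinks, CASAVA 1.8, TopHat, Bowtie2 and the builds GRCm38 and mm10. Neither annotation nor strand setting is stated there, and Cufflinks shares reads among copies of a gene. Of 24487 rows, 9 without an estimate and 27 with date-like symbols were left out, and rows sharing a symbol were summed. Small and predicted RNAs were recognised by symbol.

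Groups follow the genotype label. Differences used a pseudocount of 1 FPKM over the 11121 genes that reached 1 FPKM in a library, with calls at 1.1-, 1.2- and 2-fold, and calculations were tested on simulated data (Python 3.11.15, pandas 2.3.3). No test suits 1 library per genotype. Gene coordinates and exon overlaps come from GENCODE (GRCm38) and promoters from RefSeq (GRCm38.p6). Named genes were all members, up to 3 of the widest difference at 5 FPKM or more per wider list, and Per2. The members and lists were chosen with earlier results of these data known. Alternatives were 3 scalings, 2 pseudocounts, 2 filters, the highest row per symbol, the mean, and folds of 1.1 and 1.5. A promoter window from 100 bases before the start was added after seeing the data.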

Additional observations from a re-analysis of the deposited data

How the results depend on the processing

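The lean of the members kept its direction under each scaling, pseudocount, filter and summary tried, with the median difference between −0.12 and −0.06, and with 38 to 42 of 54 members lower, or 29 of 41 with a filter of 5 FPKM. Without replicates or read totals no error can be attached to any value, and differences of this size in 2 libraries cannot be told apart from variation between libraries. The count at least 1.2-fold lower, 4 as given, was 7 when differences were centred on the median of all genes (8.94% of all genes), 6 with upper quartile scaling (8.2%), 5 with a pseudocount of 0.1 FPKM (8.66%), 2 of 41 with a filter of 5 FPKM (6.76%), 16 at 1.1-fold (15.1%) and 0 at 1.5-fold (1.7%). No member past 1.2-fold changed sign. The median of the other kinetochore genes turned to 0.11 with the filter of 5 FPKM and 0.0371 with the mean, that of mitotic entry control to 0.00691 with that filter and 0.00893 with the mean, and that of Mki67, Top2a and Hmgb2 to 0.0161 with the mean. The cause was not tested. In promoter windows from 100 bases before to 50 bases after the start, 70% of those of the members held CHR letters, against 8.59% of all. No paired analysis was possible because each genotype has 1 library.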

Other observations

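All 8 members on chromosome 2 (Cdc25b, Bub1, Bub1b, Nusap1, Ube2c, Spc25, Aurka and Tpx2) were lower in the library labelled Per2def. Their median difference was −0.21, with a range of −0.33 to −0.07. Their summed level was 79.3 FPKM in the library labelled Per2def and 91.7 FPKM in the library labelled Per2wt. The chromosome as a whole did not share this, since 38% of its 831 measured genes were lower, with a median of 0.06. Without these 8 genes, 30 of the remaining 46 members were lower, with a median of −0.05. The members lie on 17 chromosomes, and this one was singled out after the values had been seen, so the grouping is a description only.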
